A study of Homo sapiens with 6 samples.

Results

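Ubiquitin supply and activation were followed through 4 genes, UBB, FAU, UBA1 and UBA6, taken by symbol from the 35106 rows of the count table, and all 4 passed the filter on low counts. The study compared HCT116 cells, an established human colon carcinoma line labelled WT, given curcumin for 24 h with untreated HCT116 cells, 3 libraries in each group. Curcumin is the yellow polyphenol of turmeric, and the labels give its dose as 30 μm, a unit of length, so the concentration is not settled. Both groups grew in DMEM with fetal bovine serum, and the labels record no treatment, and name no solvent, for the untreated cells. Whether replicates were separate cultures is not stated, and p-values therefore reflect the spread between libraries alone, which may be technical.

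Ubiquitin is a small protein that is joined to other proteins, often as chains, and so marks them for the proteasome or for other fates. Cells make it from precursors: UBB encodes head-to-tail repeats of ubiquitin, while RPS27A encodes 1 ubiquitin fused to a ribosomal protein. FAU has the same layout as that fusion, with a ubiquitin-like protein ahead of ribosomal protein S30, but its product is not ubiquitin. Ubiquitin is activated by an E1 enzyme before it passes to an E2 and, with an E3 ligase, to a substrate. UBA1 is the main ubiquitin E1, and UBA6 is a second E1 that also activates the modifier FAT10 and hands ubiquitin to the E2 enzymes UBE2Z and BIRC6.

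UBB and RPS27A share a ubiquitin coding unit and FAU holds a diverged one, so the first 60 coding bases of all 3 are shown. They run 5′ to 3′ on each gene's own strand, from GENCODE release 29 transcripts (GRCh38), and capitals mark bases that differ from UBB.
UBB: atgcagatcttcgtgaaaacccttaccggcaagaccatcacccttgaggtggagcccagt
RPS27A: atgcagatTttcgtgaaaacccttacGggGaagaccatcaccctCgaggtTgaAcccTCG
FAU: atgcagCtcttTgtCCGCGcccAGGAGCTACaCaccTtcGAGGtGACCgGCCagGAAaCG

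Over these bases RPS27A differed from UBB at 9 positions and FAU at 34. Over the whole first ubiquitin unit, RPS27A matched UBB at 83.3% of positions and FAU, set against it without gaps, at 31.6%. UBB (ENSG00000170315, chr17:16380798-16382745, plus strand, 2 exons) holds 3 such units. Of all windows of 50 bases of the UBB transcript, 19.5% occurred in the transcribed pseudogene UBBP4. Of all UBB windows, 45.1% occurred, on either strand, in a transcript of some other gene. The most frequent was AC093484.3, an antisense gene over 518 bases of UBB, for which the deposited counts held no row. Read length, strand use and the handling of shared reads were not stated, so reads of these overlapping pairs cannot be told apart.

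UBB and FAU rose after curcumin, and so did RPS27A, while UBA1 and UBA6 had log2 fold changes under 1 in size. UBB had 3906, 4386 and 6347 CPM in curcumin-treated libraries, against 926, 921 and 760.2 CPM in untreated libraries (CPM, counts scaled to a common library size with TMM factors). The groups lay well apart, and curcumin replicate 3 was the highest of the treated libraries. UBB rose 5.62-fold, a log2 fold change of 2.49 ± 0.21 (SE, n = 3 each; edgeR quasi-likelihood test, Benjamini-Hochberg adjusted p = 1.7e-05). Without curcumin replicate 3 the log2 fold change was 2.26. In bulk RNA, a change in how many cells express a gene and a change in RNA per cell cannot be told apart.

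**Figure D1:**
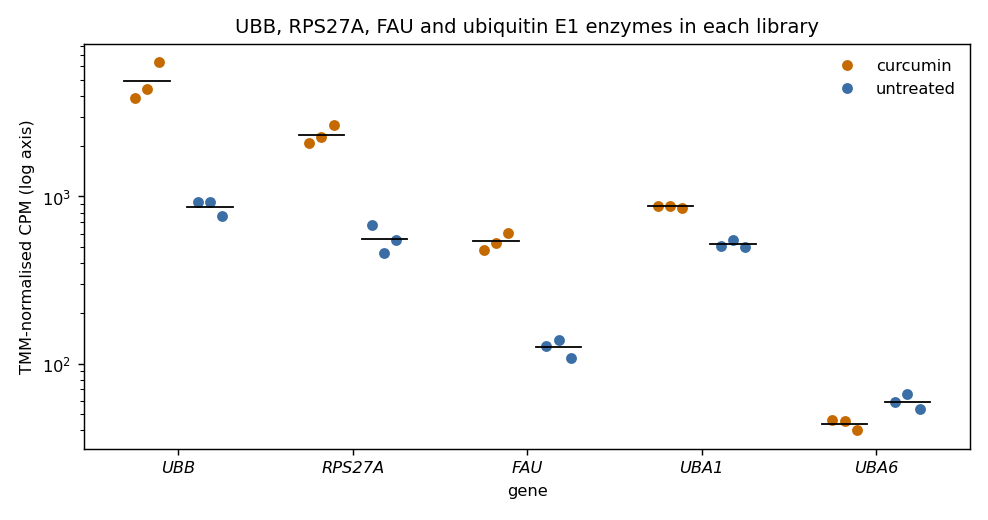
TMM-normalised CPM on a log axis for 5 genes, with 1 point per library, curcumin left of untreated, and a bar at each group mean (n = 3 each). UBB, RPS27A, FAU and UBA1 lie higher in all 3 curcumin libraries and UBA6 lies lower, with no overlap between the groups for any of the 5. The groups also did not overlap for 64% of all genes tested.

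These calls stand against a broad background. Of 13718 genes tested, 56.1% were called at an adjusted p under 0.05, 27.2% higher and 28.9% lower after curcumin, and the groups did not overlap for 64% of genes. A call was thus common in this comparison. Of all tested genes, 3.01% had a larger log2 fold change than UBB and 4.46% a larger one than FAU, against 24.6% for UBA1 and 63.9% for UBA6. The middle 80% of tested genes lay between log2 −1.44 and 1.43.

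RPS27A, the ubiquitin and ribosomal protein fusion gene, averaged 2347 ± 304 CPM after curcumin and 559 ± 108 CPM untreated (SD, n = 3). The groups did not overlap, as for 64% of all genes tested. RPS27A rose by 2.07 ± 0.19 on the log2 scale (edgeR adjusted p = 2.1e-05). RPS27A kept its call but was lower, at 1.26, when scaled by library size alone. With each library's trend with transcript length removed it was at 1.31. Of its 50-base windows, 38.0% occurred in transcripts of other genes, its pseudogenes among them. As a share of all counts, UBB took 0.366 ± 0.0768% after curcumin and 0.115 ± 0.0122% in untreated libraries, and RPS27A took 0.177 ± 0.0132% after curcumin and 0.0737 ± 0.0131% untreated.

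The pseudogene UBBP4 had 363, 311 and 472 counts in curcumin libraries and 146, 148 and 132 in untreated libraries, a small amount beside UBB, which had 52251, 55270 and 81188 counts after curcumin and 24420, 22391 and 19316 counts untreated. The FAU pseudogenes FAUP1 and FAUP2 had 0 counts in all 6 libraries. With the UBB pseudogenes added to UBB, its log2 fold change was 2.49 (edgeR adjusted p = 1.7e-05; a sum chosen after seeing the data). The remaining UBB pseudogenes UBBP1, UBBP2, UBBP3 and UBBP5 had at most 1 count in any library.

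Heat shock chaperones and co-chaperones were set beside UBB, since UBB responds to heat shock in human cells. Of 16 tested, 15 rose (93.8%, against 27.2% of all genes) and 0 fell (against 28.9%). The median log2 fold change was 2.78, against −0.037 over all genes tested. HSPA6 and HSPA1B passed the filter on low counts only through the curcumin libraries, so they could enter these counts only as higher. Scaled by library size alone, the counts were 12 higher and 1 lower, against 1320 and 7744 of all 13718 genes. The co-chaperone BAG3 rose by 3.66 ± 0.24, and HSPA6, a strictly inducible HSP70, had 217, 298 and 430.2 CPM after curcumin, against 0, 0 and 3 counts in the untreated libraries. By log2 fold change UBB stood between the small heat shock protein HSPB1 (2.51) and the mitochondrial co-chaperonin HSPE1 (2.46). HSPA1A, listed but not tested, had 0 counts in all 6 libraries, and HSPA1B had 54, 106 and 96 after curcumin and 0 untreated. The summed chaperone counts thus held almost none from these genes, and whether their reads were lost in counting was not tested. With that limit, UBB had 0.114, 0.115 and 0.111 counts for each chaperone count after curcumin, against 0.159, 0.0984 and 0.164 in untreated cells. There, replicate 2 stood below the treated libraries and replicates 1 and 3 above. The difference was −0.27 on the log2 scale (two-sided exact permutation p = 0.4, and 0.48 adjusted over the 6 ratios computed; 0.1 is the smallest p that 3 against 3 libraries allow), and it was −0.17, −0.51 and −0.14 without untreated replicate 1, 2 and 3 in turn.

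FAU (ENSG00000149806, chr11:65120628-65122473, minus strand, 5 exons) rose together with the genes of the small ribosomal subunit. It had 480.4, 526 and 607 CPM in curcumin libraries and 128, 138 and 108 CPM in untreated libraries. The groups did not overlap, as for 64% of all genes tested. FAU rose 4.31-fold, a log2 fold change of 2.11 ± 0.16 (edgeR adjusted p = 1.4e-05). Of the 32 small-subunit genes tested, FAU among them, 31 rose (96.9%, against 27.2% of all genes) and 0 fell (against 28.9%). Their median was 2.34 (log2), and FAU came 28th by log2 fold change. RPS27 was at the top with 2.90, RPS29 and RPS9 at the bottom with 1.73 ± 0.24 and 1.11 ± 1.10, RPS9 without a call. RPS9 had only 133, 0 and 17 counts after curcumin and 48, 65 and 19 untreated. These were the fewest of any listed small-subunit gene, so its change was poorly measured. RPS26 and RPS15, which had the smallest adjusted p-values, rose by 2.57 ± 0.16 and 2.33 ± 0.14. Both kept their calls but were lower, at 1.94 and 1.10, with the length trend removed, and at 1.76 and 1.52 with library size alone.

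Relative to the summed counts of the other small-subunit genes, FAU had 0.00628, 0.00615 and 0.00639 counts for each of theirs after curcumin, against 0.00648, 0.00953 and 0.00648 in untreated cells. Untreated replicate 2 stood alone at the high end. The log2 difference was −0.23 (exact permutation p = 0.1, adjusted 0.15), and −0.047 without that library. The FAU row may also hold reads of its neighbours, since 57.9% of its 50-base windows occurred in transcripts of other genes. SYVN1, a ubiquitin ligase of the endoplasmic reticulum, overlaps FAU over 694 bases on the same strand, and MRPL49, a mitochondrial ribosomal protein gene, over 291 bases on the opposite strand. Both had log2 fold changes below 0, and whether their reads entered the FAU row was not tested. SYVN1 had 36.6, 32.4 and 52.6 CPM after curcumin and 65.0, 72.3 and 73.0 CPM untreated (log2 −0.79 ± 0.19, edgeR adjusted p = 0.0056), and MRPL49 had a log2 fold change of −0.52 ± 0.22 (adjusted p = 0.071).

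UBA1 (ENSG00000130985, chrX:47190861-47215128, plus strand, 26 exons) rose modestly relative to other transcripts. It had 883, 881 and 854 CPM in curcumin libraries and 506, 545 and 498 CPM in untreated libraries, a narrow spread within each group. The log2 fold change was 0.76 ± 0.13, a fold of 1.69 (edgeR adjusted p = 0.00074). As a share of all counts, UBA1 took 0.0660 ± 0.00492% after curcumin and 0.0682 ± 0.00414% in untreated libraries (SD, n = 3). With library size alone as the scaling, which moved the median of all genes by −0.80, UBA1 had a log2 fold change of −0.048 (edgeR adjusted p = 0.78), and with the 100 most abundant genes left out of the library size 0.39 (adjusted p = 0.024), so the call depends on the scaling.

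UBA6 (ENSG00000033178, chr4:67612652-67701179, minus strand, 33 exons) was lower after curcumin under TMM scaling. It had 45.9, 45.5 and 39.8 CPM in curcumin libraries and 58.5, 65.6 and 53.2 CPM in untreated libraries. UBA6 fell by 0.43 on the log2 scale (SE 0.15, edgeR adjusted p = 0.031). That call was lost without curcumin replicate 1, 2 or 3 (adjusted p = 0.053, 0.069 and 0.057) and without untreated replicate 1 or 2 (0.070 and 0.076). Across the table, genes with longer transcripts had lower log2 fold changes. Among tested protein-coding genes split into 5 groups by length, the longest (5344 bases or more) had a median of −0.72 and the shortest (1780 bases or fewer) a median of 0.78. UBA6, with a transcript of 9564 bases, lay in the longest group and was above 63.9% of it. With each library's trend with length removed, UBA6 turned to 0.36 ± 0.19 (adjusted p = 0.14). With library size alone it was −1.24 (edgeR adjusted p = 7.6e-05), and with the top 100 genes left out of that size −0.80 (adjusted p = 0.0014).

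The other members kept their direction with the length trend removed. UBB and FAU, both in the shortest group with transcripts of 1225 and 847 bases, were above 94.96% and 91.1% of it and had log2 fold changes of 1.84 and 1.18 then (edgeR adjusted p = 7.0e-05 and 0.00019). UBA1, with a transcript of 3559 bases in the middle group, whose median was −0.049, had 0.93 (adjusted p = 0.00033).

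**Figure D2:**
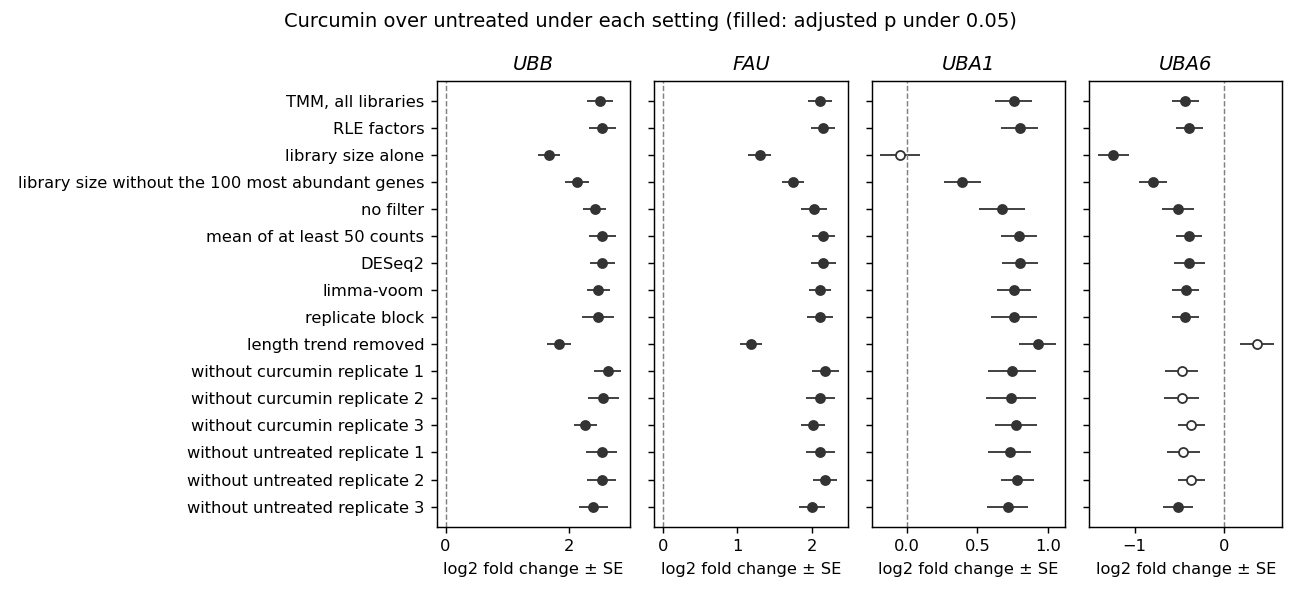
Log2 fold change of curcumin over untreated ± SE for UBB, FAU, UBA1 and UBA6 (n = 3 each, or 3 against 2 where a library is left out) under each setting, filled where the adjusted p is under 0.05. UBB and FAU stay above 1 throughout, UBA1 is near 0 with library size alone, and UBA6 crosses to 0.36 with the length trend removed.

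The ratio of the E1 genes was lower in every curcumin library than in every untreated library. There were 0.0520, 0.0516 and 0.0466 UBA6 counts for each UBA1 count after curcumin, against 0.116, 0.120 and 0.107 in untreated cells. The log2 ratio was −4.32 ± 0.0881 after curcumin and −3.13 ± 0.0859 in untreated cells, a difference of −1.19 (SD, n = 3; exact permutation p = 0.1, adjusted 0.15). This ratio needs no scaling between libraries, but it carries any trend with length, since the transcripts differ in length.

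Per kilobase of transcript, UBB was the most abundant member, with 3983 ± 1056 CPM per kb after curcumin and 709 ± 77.0 untreated (SD, n = 3). FAU had 635 ± 75.9 CPM per kb after curcumin and 147 ± 17.97 untreated, and UBA1 had 245 ± 4.58 after curcumin and 145 ± 7.15 untreated. FAU and UBA1 thus did not differ in untreated cells beyond their spread, while FAU was higher in all treated libraries. This comparison carries any trend with length, since the transcripts have 847 and 3559 bases. With that trend removed, the log2 fold changes were 1.18 for FAU and 0.93 for UBA1. The FAU level may also hold reads of other genes, which share 57.9% of its 50-base windows. UBA6 was the least abundant in both groups, with 4.57 ± 0.356 CPM per kb after curcumin and 6.18 ± 0.648 untreated.

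Genes of the UBA6 branch, its E2 enzymes and the ligases they serve, had log2 fold changes below 0 under TMM scaling. Of 5 tested genes, 0 rose (against 27.2% of all genes) and 3 fell (against 28.9%), with a median of −0.53. All 5 were called lower with library size alone, and also with library size taken without the 100 most abundant genes. Those settings called 7744 and 5604 of all 13718 genes lower, against 3964 under TMM scaling. The E2 enzyme UBE2Z averaged 142 ± 6.61 CPM after curcumin and 206 ± 1.40 CPM untreated (log2 −0.53 ± 0.12, edgeR adjusted p = 0.0046), and the giant E2 and apoptosis inhibitor BIRC6 30.0 ± 2.93 CPM after curcumin and 76.1 ± 13.2 CPM untreated (−1.34 ± 0.17). The ligase UBR3 fell by 0.84 ± 0.19, and the N-end rule ligases UBR1 and UBR2 had −0.33 and −0.34 (adjusted p = 0.12 and 0.11). UBD, the gene of FAT10, had 0 counts in all 6 libraries, where 3 counts would be 0.224 to 0.238 CPM after curcumin and 0.114 to 0.123 CPM untreated. With the length trend removed only UBE2Z kept a call (−0.46, adjusted p = 0.013), and UBR1 and UBR2 turned to 0.38 and 0.37 with no call. UBE2Z had 3.21, 2.96 and 3.64 counts for each UBA6 count after curcumin and 3.50, 3.13 and 3.89 in untreated cells (log2 difference −0.10, exact permutation p = 0.5; a ratio chosen after seeing the data). That difference was −0.033 and −0.18 without curcumin replicate 2 and 3 in turn, and −0.18 and −0.023 without untreated replicate 2 and 3 in turn.

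Among all 10 E1 genes of ubiquitin and ubiquitin-like proteins, 3 rose (30.0%, against 27.2% of all genes) and 2 fell (20.0%, against 28.9%), with a median of 0.18. These shares were near or below the background. Beside UBA1, the SUMO E1 subunit SAE1 and the NEDD8 E1 subunit NAE1 rose (0.73 ± 0.15 and 0.75 ± 0.20, edgeR adjusted p = 0.0022 and 0.0086). MOCS3, which activates URM1, fell by 2.31 ± 0.27, with 3.21, 2.62 and 5.00 CPM after curcumin and 18.3, 16.0 and 19.6 CPM untreated. With library size alone 0 of the 10 rose and 5 fell, against 1320 and 7744 of all 13718 genes, and SAE1 turned to −0.067. SAE1 also had no call with library size taken without the 100 most abundant genes. MOCS3 had the largest change of the 10 under TMM scaling and kept its call under all 15 alternatives.

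**Figure D3:**
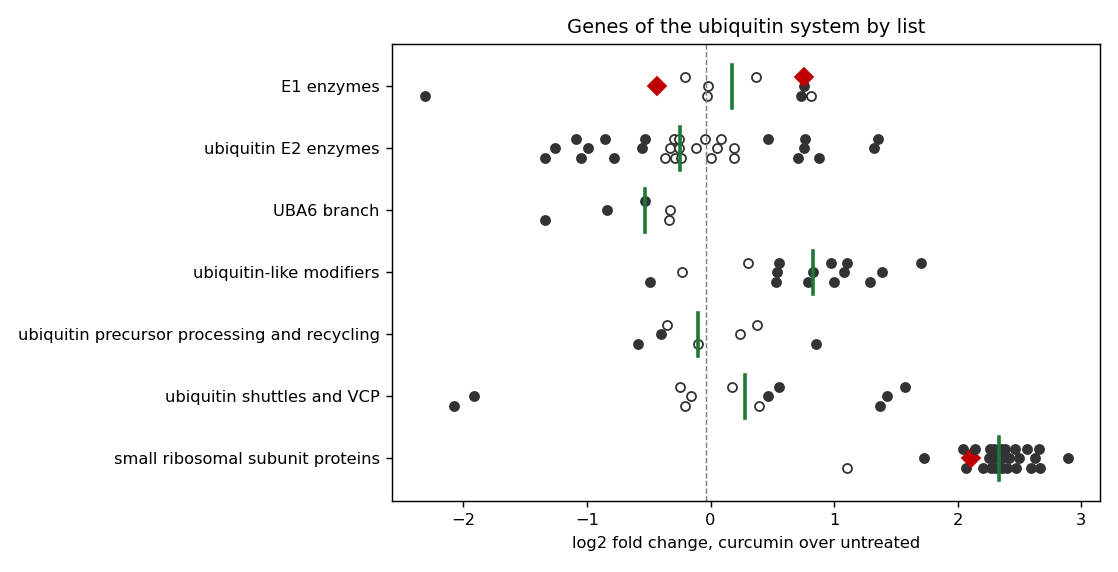
Log2 fold change of curcumin over untreated for the tested genes of 7 lists, filled where the adjusted p is under 0.05, with FAU, UBA1 and UBA6 as red diamonds, a green bar at each list's median and a dashed line at the median of all tested genes (−0.037). The small-subunit genes lie mostly above 2, while E1 and E2 genes spread to both sides of 0.

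The ubiquitin E2 enzymes were split, in shares close to those of all genes. Of 30 tested, 7 rose (23.3%, against 27.2% of all genes) and 9 fell (30.0%, against 28.9%), with a median of −0.24. UBE2S, which extends ubiquitin chains for the anaphase-promoting complex, rose to 785 ± 18.4 CPM after curcumin, against 306 ± 74.1 CPM untreated, and UBE2E1 rose by 1.32 ± 0.19. UBE2G1, which serves cullin ligases, fell by 1.26 ± 0.16. With library size alone, 2 rose and 23 fell, against 1320 and 7744 of all 13718 genes. The log2 fold changes were then 0.55 for UBE2S, 0.53 for UBE2E1 and −2.07 for UBE2G1.

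Of 15 tested genes of ubiquitin-like proteins, FAU left out, 12 rose (against 27.2% of all genes) and 1 fell (against 28.9%), with a median of 0.83. UBL5 rose by 1.70 ± 0.17 and GABARAP, an autophagy modifier, by 1.38 ± 0.14, while UBL4A, a carrier of tail-anchored membrane proteins, fell by 0.49 ± 0.16. UBL4A had no call without curcumin replicate 2 or untreated replicate 1 or 2 (edgeR adjusted p = 0.11, 0.063 and 0.060). The split was 8 higher and 1 lower with the length trend removed, and 2 and 3 with library size alone. Over all genes, the first setting called 3459 higher and 3123 lower of 13697, and the second 1320 higher and 7744 lower of 13718. UBL5 was at 0.47 (edgeR adjusted p = 0.037) with the length trend removed and at 0.89 with library size alone, where GABARAP was at 0.58 and UBL4A at −1.29.

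Among deubiquitinases that trim ubiquitin precursors or recycle chains, 1 of 7 tested rose (14.3%, against 27.2% of all genes) and 2 fell (28.6%, against 28.9%), with a median of −0.10. The share that fell was that of the background. UCHL3, which trims small ubiquitin adducts, rose by 0.85 ± 0.19, whereas USP14 of the proteasome fell by 0.59 ± 0.14 and USP7 by 0.40 ± 0.15. UCHL3 had no call with library size alone (0.054) or with library size taken without the 100 most abundant genes (0.49, edgeR adjusted p = 0.060). None of these 3 kept its call with the length trend removed (−0.080, −0.19 and 0.067), and USP7 also lost it without any 1 of the curcumin libraries or without untreated replicate 2 or 3 (adjusted p from 0.051 to 0.11), and with RLE factors or DESeq2. The split was 0 higher and 5 lower by library size alone, but 2 higher and 0 lower once the length trend was removed. Over all genes, the first setting called 1320 higher and 7744 lower of 13718, and the second 3459 and 3123 of 13697. Among carriers of ubiquitinated proteins, 5 of 12 rose (41.7%, against 27.2% of all genes) and 2 fell (16.7%, against 28.9%), with a median of 0.28. By library size alone, 3 were higher and 6 lower, again against 1320 and 7744 of all 13718 genes. The autophagy receptor SQSTM1 rose to 857 ± 24.8 CPM after curcumin, against 331 ± 19.8 CPM untreated (log2 1.37, and 0.57 with library size alone). The protease DDI2 and the ubiquilin UBQLN2 were the 2 that fell, with log2 fold changes of −2.08 ± 0.23 and −1.92 ± 0.21.

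The genes most like each member were those with the smallest root mean square difference in centred log2 CPM over the 6 libraries, among 10629 protein-coding genes with a mean of at least 5 CPM. For UBB they were OSER1, HSPB1 and BUD31 (0.087, 0.10 and 0.12, against a median of 1.32 over all candidates). For FAU they were CRABP2, ATP5MD and MDK (0.076, 0.082 and 0.083, against 1.13). UBA1 was matched by SGTA, TRAM1 and WDR1 (0.029, 0.032 and 0.034, against 0.53), and UBA6 by YES1, NUP43 and ARMC1 (0.043, 0.049 and 0.049, against 0.45).

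Libraries held 16663610 to 17893127 counts after curcumin and 18154536 to 20311888 untreated, and the 100 most abundant genes took 39.9 to 43.3% of them after curcumin and 18.9 to 22.7% untreated. Epithelial markers were high in every library, with 6 of 6 tested and summed levels of 7425 to 8652 CPM after curcumin and 3977 to 4651 CPM untreated. Summed leukocyte markers were 15.9 to 32.6 CPM after curcumin and 2.51 to 3.45 CPM untreated, mostly CD68, with CD3E at 0 counts throughout and PTPRC at most 0.556 CPM. Summed endothelial markers were 8.30 to 28.1 CPM after curcumin and 1.36 to 2.20 CPM untreated, mostly PECAM1 and VWF, with CDH5 at most 0.118 CPM. Summed fibroblast markers were 15.2 to 38.3 CPM after curcumin and 26.0 to 31.1 CPM untreated, nearly all COL1A1. The part of these differences in the results above was not tested.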

How the data were processed

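RNA-seq libraries were made from total RNA extracts with a SMARTER mRNA-Seq kit, per the labels' protocols. The authors deposited 1 table of estimated counts (expected counts per gene, not scaled between libraries). Aligner, counter and annotation: not given in the sources used here. GRCm38 and mm10 stand in the submitters' processing notes, whereas all 35106 rows carry human Ensembl identifiers, so the table was read as human; 35003 rows were found in GENCODE release 29 (GRCh38). Counts were rounded, which moved no value by more than 0.5.

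Low counts were removed by filterByExpr (minimum count 10, total 15). TMM scaling and the quasi-likelihood test came from edgeR 4.0.16 (R 4.3.3), run over all 6 libraries, with genes called at an adjusted p under 0.05. The standard error is the log2 fold change divided by the square root of F. On simulated data the test called 49 of 98 genes changed 2-fold, 83 of 99 changed 4-fold and 5 of 13316 unchanged. A gene without a call may thus still have changed. Far fewer genes were changed in the simulation than were called in the real data. Ratios within a library were compared by two-sided exact permutation over libraries. Transcript length was that of the principal transcript with the best support. Of 132 listed genes 131 were matched; USP36 was not analysed here. Some genes and sums that the rule or the alternatives include are not reported here. Members and lists were chosen with earlier results of these data known. Named genes are the members, ubiquitin genes, the UBA6 partners, up to 2 higher and 2 lower genes per list by adjusted p, and the 3 nearest genes per member; NAE1 and those named for their place in an order, an overlap or a count were added after their values were seen. Alternatives were RLE factors, library size with and without the 100 most abundant genes, no filter, a filter at a mean of 50 counts, DESeq2 1.42.0, limma-voom 3.58.1, the replicate block, removal of a loess trend with length (span 0.3) and each library left out. The floor of 3 counts covers counting error only, as reads lacking molecular identifiers need not be separate molecules.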

Additional observations from a re-analysis of the deposited data

How the results depend on the processing

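UBB and FAU kept their direction and call under every alternative reported, with log2 fold changes of 1.67 to 2.62 and 1.18 to 2.18; adding the UBB pseudogenes to UBB was chosen after seeing the data. UBA1 was called in 14 of 15 alternatives and turned to −0.048 with library size alone. UBA6 was called in 9 of 15 and reached −1.24 with library size alone: it turned to 0.36 with the length trend removed, and with 1 library left out it ranged from −0.52 to −0.37, called only without untreated replicate 3. The cause was not tested. Other genes that turned were UBR1 (0.38), UBR2 (0.37), UCHL3 (−0.080) and USP7 (0.067) with the length trend removed, and SAE1 (−0.067) with library size alone. The number of genes called stayed between 6582 and 9064, against 7696, but library size alone gave 1320 higher and 7744 lower calls, and library size computed without the top 100 genes 2523 and 5604, against 3732 and 3964. With 1 library left out, the UBA6 to UBA1 difference ranged from −1.24 to −1.14.

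Replicate numbers are shared between the groups, but same-numbered libraries deviated together only weakly (correlations 0.035 to 0.15), so they were not taken as pairs. With the replicate block the log2 fold changes were 2.46 for UBB, 2.11 for FAU, 0.76 for UBA1 and −0.43 for UBA6, 7694 genes were called, and no member's call changed. UBA6, with at least 509 counts in each library, was the least deeply counted member.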
